A study of Mus musculus with 4 samples.

Results

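The cells described here are the 73 cells that the authors' deposited annotation names Neutrophil, among 12648 non-malignant cells and 31611 cells in all from mouse sarcomas. They were chosen by that name alone, and 11 came from vehicle mouse 1, 5 from vehicle mouse 2, 34 from digoxin mouse 1 and 23 from digoxin mouse 2. The tumors grew in the hind limb in a sarcoma model on the 129/SvJae background with conditional Trp53 alleles (Trp53flox/flox), and all 4 mice carried the same labelled genotype. The 2 vehicle mice received PBS by intraperitoneal injection. The 2 digoxin mice received digoxin, a cardiac glycoside that blocks the sodium pump, at 2 mg/kg, dissolved in DMSO and diluted in PBS. Injections were given every 24 h and tumors were collected after 4 doses. Tumors were dissociated with enzymes, red cells were lysed, and cells were profiled by droplet single-cell RNA sequencing of 3′ ends, in which each RNA molecule carries a unique molecular identifier (UMI). The labels give neither the age nor the sex of the mice, and the question read from them is how digoxin treatment alters the cells of the tumor.

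Neutrophils are short-lived granulocytes that are made in the bone marrow and enter tissue from the blood. During maturation they fill primary granules first (myeloperoxidase, neutrophil elastase), then secondary granules (lactoferrin, cathelicidin, neutrophilic granule protein) and last tertiary granules (gelatinases), while they stop dividing and gain the chemokine receptor Cxcr2. Cells in the circulation and in tissue have mostly stopped making granule transcripts, and in inflamed tissue and tumors they make interleukin-1 and CXC chemokines instead.

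The neutrophils held 1000412 UMIs in all, with a median of 11969 UMIs and 3057 genes per cell. The median was 12612 and 7202 UMIs per cell in vehicle mice 1 and 2 and 13689.5 and 10877 in digoxin mice 1 and 2, against 16412 in the cells named Macrophage. The deposited tables held no cell with fewer than 1801 genes, and 8.22% of neutrophils against 2.44% of the other non-malignant cells had fewer than 2000, so cells with little RNA are present in these tables only down to that limit. The median mitochondrial share was 3.13%, and 1 neutrophil exceeded 10%. Of the cell barcodes, 113 occurred in more than 1 library, none of them a neutrophil. Scrublet, a doublet caller, marked 0 of the 73 cells. The neutrophils of vehicle mouse 2 held no UMI of Xist, which is made from the inactive X chromosome, against 619 CPM (counts scaled to 1000000 UMIs per cell) in vehicle mouse 1 and 572 and 706 CPM in digoxin mice 1 and 2. The Y-linked gene Ddx3y was at 139 CPM in vehicle mouse 2 and at 0, 2.35 and 4.17 CPM in the others, so the sex of the host differed between the vehicle mice, and its part in the differences between mice was not tested. Levels below are mean CPM over cells, and 4 values in a row are those of vehicle mice 1 and 2 and then digoxin mice 1 and 2. As these are counts of 3′ ends, they are not divided by transcript length, and levels of different genes are given side by side without ranking one gene's transcript number against another's.

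The results turn first on 3 secondary granule genes on 1 chromosome and then on 2 cytokine genes, and the sequences before their starts are shown to give their context. In RefSeq's annotation of GRCm38.p6, the build called mm10, Camp (chr9:109847377-109849456), Ngp (chr9:110419808-110423012) and Ltf (chr9:111019292-111042766) lie within 1.20 Mb of chromosome 9. S100a8 (chr3:90669071-90670034) and S100a9 (chr3:90692630-90695721) lie 22.6 kb apart on chromosome 3. The 250 bases before each start were searched on both strands for TTNNGCAA, letters found in sites of the granulocyte regulators of the C/EBP family, and for GGANNTTCC, letters found in sites of NF-kB. Capitals mark TTNNGCAA in the first 3 sequences and GGANNTTCC in the last 2, and no 2 matches overlap.
Camp, chr9:109849457-109849706, minus strand: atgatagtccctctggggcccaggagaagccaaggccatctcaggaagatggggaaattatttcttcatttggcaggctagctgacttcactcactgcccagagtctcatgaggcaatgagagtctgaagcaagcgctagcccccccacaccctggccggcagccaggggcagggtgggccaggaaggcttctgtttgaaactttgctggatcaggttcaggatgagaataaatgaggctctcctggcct
Ngp, chr9:110419558-110419807, plus strand: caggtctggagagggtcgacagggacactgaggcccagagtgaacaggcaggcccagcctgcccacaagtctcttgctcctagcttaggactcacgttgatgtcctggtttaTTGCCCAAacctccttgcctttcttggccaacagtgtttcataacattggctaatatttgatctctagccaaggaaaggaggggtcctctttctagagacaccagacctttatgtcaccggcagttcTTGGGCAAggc
Ltf, chr9:111019042-111019291, plus strand: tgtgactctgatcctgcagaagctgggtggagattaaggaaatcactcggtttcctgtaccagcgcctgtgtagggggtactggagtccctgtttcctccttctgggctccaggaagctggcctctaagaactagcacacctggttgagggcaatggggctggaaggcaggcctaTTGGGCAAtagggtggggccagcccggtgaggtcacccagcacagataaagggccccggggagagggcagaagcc
Il1b, chr2:129371140-129371389, minus strand: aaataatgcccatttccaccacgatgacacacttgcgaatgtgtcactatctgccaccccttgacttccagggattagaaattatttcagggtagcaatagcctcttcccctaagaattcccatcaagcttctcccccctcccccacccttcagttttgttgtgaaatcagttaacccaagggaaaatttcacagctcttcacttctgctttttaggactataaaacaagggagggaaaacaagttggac
Cxcl2, chr5:90903649-90903898, plus strand: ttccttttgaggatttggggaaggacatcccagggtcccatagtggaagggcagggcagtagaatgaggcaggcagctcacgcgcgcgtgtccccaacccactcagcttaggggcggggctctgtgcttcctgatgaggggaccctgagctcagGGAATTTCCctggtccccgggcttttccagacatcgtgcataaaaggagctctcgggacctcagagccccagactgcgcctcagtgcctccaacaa
TTNNGCAA was found at 2 places before Ngp, at 1 before Ltf and at none before Camp, and GGANNTTCC at 1 before Cxcl2 and at none before Il1b. Of the 32851 promoters in the same table, 9.56% held TTNNGCAA and 3.59% held GGANNTTCC in these 250 bases. TTNNGCAA was present before 4 of 8 secondary, 4 of 4 matched tertiary and 0 of 5 matched primary granule genes. It was present before 1 of 16 matched cytokine and chemokine genes. GGANNTTCC was present before 0, 0, 0 and 7 of them in that order. Of the 4 genes S100a8, S100a9, Csf3r and Cxcr2, 1 held TTNNGCAA and 1 held GGANNTTCC. A match of letters describes the window only and does not show that a factor binds there.

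The markers of the name were found in nearly all cells, and transcripts of macrophages and monocytes were found beside them in a part, described further on. S100a8 and S100a9, the subunits of the antimicrobial calcium-binding protein calprotectin, were each detected in 68 of 73 cells, Csf3r, the receptor of the granulocyte growth factor G-CSF, in 66, and Cxcr2, the receptor of CXC chemokines that draw neutrophils, in 62. At least 3 of these 4 markers were detected in 67 cells (91.8%), and the remaining 6 cells carried 2. At least 3 of the 4 were detected in 0.598% of 10363 cells named Macrophage (median 16412 UMIs) and 0.518% of 579 cells named T cell (median 7765 UMIs). When each cell was thinned to 7000 UMIs, which left out 5 shallower neutrophils, Cxcr2 was expected in 70.5% of neutrophils, against 84.9% unthinned, and in 0.410% of macrophages. Csf3r was expected in 74.3% and 19.9%, S100a8 in 91.3% and 7.96% and S100a9 in 92.5% and 2.57% of them, so Csf3r alone separated the types least.

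Mean CPM over the 4 mice was 20391 for S100a8, 22199 for S100a9, 439 for Csf3r and 342 for Cxcr2. The highest level in any other deposited type was 56.3 CPM for S100a8 and 135 CPM for S100a9, both in B cells and nearly all from vehicle mouse 1 (223 and 528 CPM, against at most 5.65 CPM in the other mice), 36.3 CPM for Csf3r in macrophages and 5.57 CPM for Cxcr2 in the cells named Microglia. How the cells were named is not given in the sources used here, and the names may rest on these same genes, so such levels describe the cells and were not tested. Other genes that stood far above all other types were Camp, Ngp, Retnlg (a resistin-like secreted protein), Ltf, Wfdc21, G0s2 (an inhibitor of fat breakdown), Lcn2 (lipocalin 2, which binds bacterial siderophores), Stfa2l1, Acod1 (the enzyme that makes itaconate) and Hcar2 (a receptor of hydroxybutyrate). G0s2 was at 1541 CPM in 60 cells, against 35.0 CPM in the next type. Hdc, the enzyme that makes histamine, was detected in 71 cells at 649 CPM, against 98.6 CPM in the cells named Epithelial.

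Defining markers of most other types were at or near 0. The summed level of 6 T cell markers was between 0 and 19.2 CPM per mouse, against 3132 CPM in T cells, and Cd3e, Cd4 and Cd8a had no UMI. Of 7 mast cell and basophil markers, Mcpt4, Mcpt8, Ms4a2 and Fcer1a had none. Siglecf, a receptor of eosinophils and of some tumor neutrophils, had a UMI in 1 cell, and the eosinophil gene Ccr3 in none. Of 5 measured eosinophil markers 3 had a UMI, and the 5 summed to between 0 and 53.7 CPM per mouse. Of 8 dendritic cell markers, Flt3, Zbtb46 and Clec9a each had a UMI in 1 cell, Xcr1 in 2 and Cd209a in none. The mean summed level of the 8 was nevertheless 11469 CPM, against 15053 CPM in the cells named Dendritic. The list also holds the class II genes Cd74, H2-Aa and H2-Ab1. By mouse the sum was 8340 and 19807 CPM in vehicle mice 1 and 2 and 9464 and 8265 CPM in digoxin mice 1 and 2. The mean was thus raised by the 5 neutrophils of vehicle mouse 2.

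Transcripts of monocyte and macrophage markers were found as well. The 7 monocyte markers summed to between 3042 and 4985 CPM per mouse, with a mean of 3584 CPM, against 3540 CPM in macrophages, and none of the 7 was at 0. Fn1, which encodes fibronectin, was detected in 44 of 56 granule-poor and 6 of 17 granule-rich cells, a division described next. Ccr2, the receptor that brings monocytes into tissue, was detected in 47 and 8. Plac8, which granulocytes also express, was detected in 40 and 16. Among T cells, at a median of 7765 UMIs, Fn1 had a UMI in 37.3%, Ccr2 in 55.1% and Plac8 in 47.2%. Detection in granule-rich cells, at a median of 15224 UMIs, was near the T cell share for Fn1 and Ccr2. Whether T cells make these transcripts themselves was not tested, so their share does not set a background level. The part of monocytes among the cells named Neutrophil was not tested. Macrophage and class II genes are described after granule content.

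Secondary granule content divided the neutrophils into groups with a wide gap between them. The 7 measured secondary granule genes (Ltf, Camp, Ngp, Lcn2, Fcnb, Chil3 and Cd177) made up between 1.83% and 16.8% of the UMIs in 17 cells, with a median of 6.96%. In the other 56 cells they made up at most 0.466%, with a median of 0.0290%. No cell lay between 0.466% and 1.83%, and the boundary of 1% was set after these values were seen. The 17 cells are called granule-rich and the 56 granule-poor below, as ranges of 1 score and not as cell types. At least 3 macrophage markers were detected in 52 of the granule-poor cells, as described further on. How far the score follows maturity and how far the identity of the cells was not tested.

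**Figure D1:**
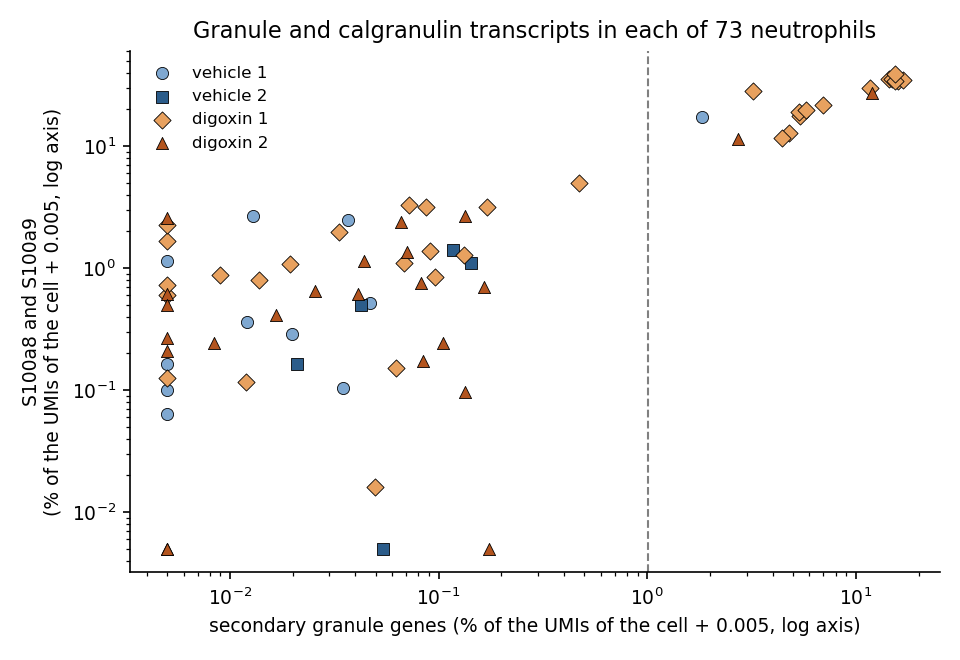
Share of each cell's UMIs from the 7 secondary granule genes (x axis, percent + 0.005, log axis) against its share from S100a8 and S100a9 (y axis, percent + 0.005, log axis), 1 point per neutrophil, coloured by mouse. The dashed line marks 1%. The 17 cells to its right hold 14 from digoxin mouse 1, 2 from digoxin mouse 2 and 1 from vehicle mouse 1, and all lie at the top of the calgranulin axis.

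The granule-rich cells carried whole sets of granule transcripts at once. Camp, which encodes the cathelicidin precursor, was at 36067 CPM in granule-rich and 13.5 CPM in granule-poor cells. Ngp, the neutrophilic granule protein, was at 30040 against 59.5 CPM, Lcn2 at 12222 against 135 CPM and Ltf, lactoferrin, at 6856 against 10.9 CPM. Chil3, a chitinase-like lectin, was at 6402 against 271 CPM. Camp and Ngp were detected together in 17 of 73 cells, Camp alone in 1, Ngp alone in 2 and neither in 53. Since the score is built from these genes, their gap is what divided the cells and not a separate result.

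Genes outside the score followed the same division. S100a8 ranged from 50825 to 171900 CPM with a median of 131984 in granule-rich cells and from 0 to 24058 CPM with a median of 1891 in granule-poor cells, so the groups of cells did not overlap. S100a9 ranged from 17998 to 213610 CPM in granule-rich and from 0 to 25255 CPM in granule-poor cells, which overlapped slightly. Ly6g, the surface antigen of mouse neutrophils, was detected in 16 of 17 granule-rich and 4 of 56 granule-poor cells. Cebpe, the C/EBP factor of late granulocyte maturation, was detected in 12 of 17 and 7 of 56. Padi4, the enzyme that citrullinates histones before chromatin release, was detected in 13 of 17 granule-rich cells and in 0 of 56 granule-poor cells, a count of 0 that allows a share of cells with a UMI of up to 5.36%.

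Granule-rich cells differed among themselves in cycling and later genes. Of the 17, 8 drew at least 10% of their UMIs from secondary granule genes and 9 drew less, a boundary also set after these values were seen. The 8 cells carried 437 CPM of the proliferation gene Mki67 and 451 CPM of the topoisomerase gene Top2a, and the 9 cells 15.7 and 0 CPM. The 9 cells carried the later genes instead, with 14660 CPM of Retnlg against 551 CPM, 1735 CPM of the collagenase gene Mmp8 against 194 CPM and 484 CPM of Cxcr2 against 158 CPM. These are means, and 1 of the 9, from vehicle mouse 1, drew 8.12% of its UMIs from the tertiary granule list, which holds Retnlg and Mmp8. The median share of that list was 1.39% in the 9 cells and 0.862% in the 8. At least 4 of 6 cycling genes were detected in 5 of the 8 cells, in 0 of the 9 and in 6 of the 56 granule-poor cells. Of those 5 cells, 4 came from digoxin mouse 1 and 1 from digoxin mouse 2.

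Transcripts of the earliest stage were absent from most cells. The 6 primary granule genes together had no UMI in 64 of 73 cells. Among the 8 cells with at least 10% of UMIs from secondary granule genes, 3 had none. The highest share, 0.101%, was in 1 of these 8, from digoxin mouse 2. Of the primary granule genes, Mpo (myeloperoxidase) had a UMI in 2 of 73 cells, Elane (neutrophil elastase) in 1, Prtn3 (proteinase 3) in 3 and Ctsg (cathepsin G) in 0, the last allowing a share of up to 4.11%. Gfi1, a repressor of granulocyte progenitors, had no UMI. Fcnb, a lectin of immature granulocytes and 1 of the 7 genes of the score, was detected in 7 cells. Kit, a receptor of progenitors and mast cells, had a UMI in 1 cell.

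**Figure D2:**
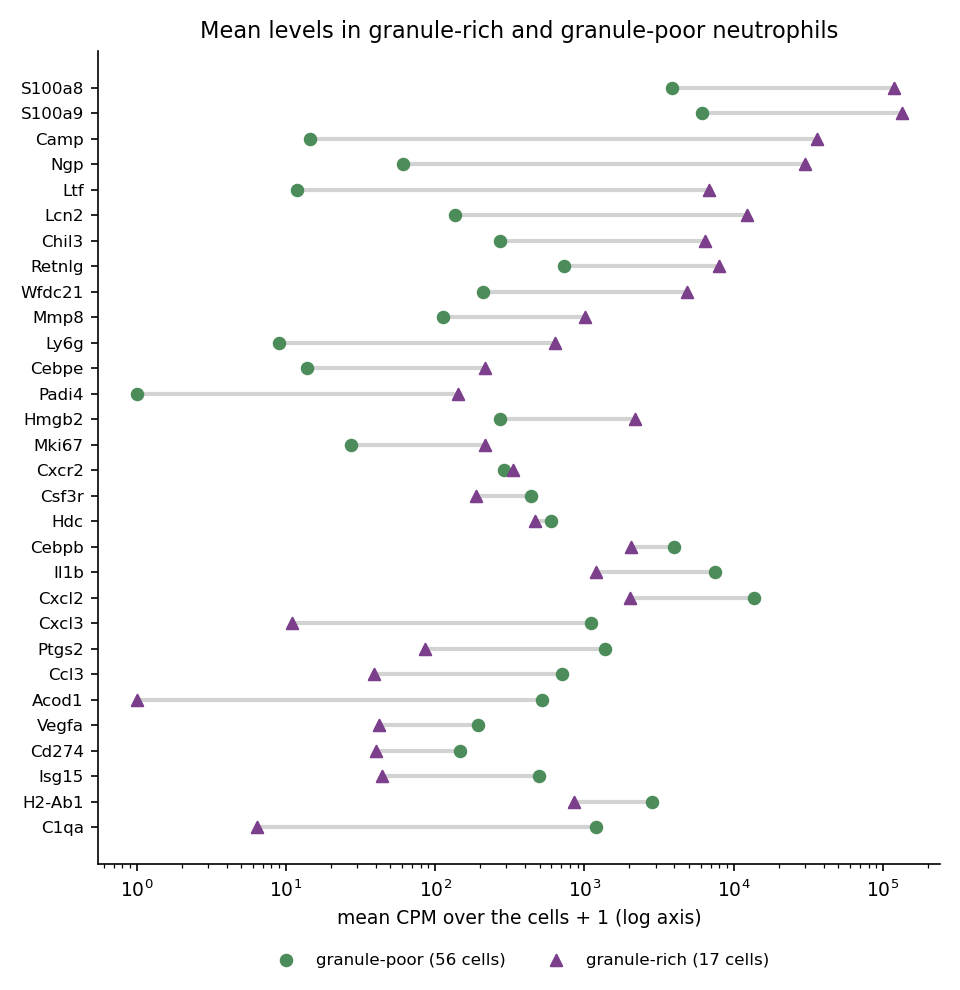
Mean CPM + 1 (x axis, log axis) of 30 genes in the 17 granule-rich (triangles) and 56 granule-poor neutrophils (circles). Granule and cycling genes lie to the right in granule-rich cells, cytokine, interferon and macrophage genes in granule-poor cells, and the points of each gene lie close together for Cxcr2 and Hdc.

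Granule-poor cells carried high levels of cytokine and chemokine transcripts. The markers S100a8, S100a9, Csf3r and Cxcr2 took a mean of 25.2% of UMIs in granule-rich and 1.07% in granule-poor cells. Secondary granule genes took a mean of 9.24% and 0.0515%. These shares lower the CPM of all other genes in granule-rich cells, here and in the comparisons below, and no correction was made for them. Il1b, the precursor of interleukin-1 beta, was detected in 56 of 56 granule-poor cells, from 466 to 24695 CPM with a median of 5524 CPM. In granule-rich cells it was detected in 10 of 17, with a median of 56.8 CPM. T cells, at a median of 7765 UMIs, held an Il1b UMI in 27.3% of cells, at a mean of 380 CPM over mice. Macrophages, at a median of 16412 UMIs, held 1 or more in 65.1% of cells, at a mean of 1583 CPM over mice. Cxcl2, a chemokine that binds Cxcr2, had a median of 10705 CPM in granule-poor and 176 CPM in granule-rich cells. It was detected in 91.3% of macrophages, at a mean of 4834 CPM over mice. Its close relative Cxcl3 was at 1101 against 10.1 CPM.

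Other mediators showed the same difference in mean level. Ptgs2, the inducible enzyme of prostaglandin synthesis, was at 1373 CPM in granule-poor and 84.7 CPM in granule-rich cells. Acod1 was at 520 CPM in 44 granule-poor cells and had no UMI in the 17 granule-rich cells. Ccl3, which encodes a macrophage inflammatory protein, was detected in 29 of 56 and 3 of 17 cells, and Vegfa, the angiogenic growth factor, in 32 and 6. Ccl3 and Ccl4, its neighbour, were found together in 23 cells. Cd274, the checkpoint ligand PD-L1, was at 145 CPM in granule-poor and 38.9 CPM in granule-rich cells. Cebpb, the C/EBP factor of inflammatory gene expression, was present in every neutrophil, at 4002 and 2060 CPM. As a mean over 17 and 56 cells, none of these values has a replicate error, because 14 of the granule-rich cells came from digoxin mouse 1.

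Receptors for the growth and arrival of neutrophils differed from gene to gene. Cxcr2 was at 330 CPM in granule-rich and 288 CPM in granule-poor cells. Csf3r was at 186 and 435 CPM, and Cxcr4, a receptor that holds neutrophils in the marrow, at 56.2 and 217 CPM. Il1r2, the decoy receptor of interleukin-1, was at 537 and 497 CPM and was detected in 69 cells. Trem1, an amplifier of inflammatory signals, was at 547 and 517 CPM. The NADPH oxidase, which makes superoxide for microbial killing, was present in both: Cybb, its catalytic subunit, was at 1583 and 553 CPM, and Cyba, its partner, was detected in 73 of 73 cells at 1771 and 1447 CPM.

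Interferon-stimulated genes took a high share in a few cells, while 9 of 73 cells held no UMI of the list. The 14 genes of the interferon list exceeded 0.5% of the UMIs in 10 cells, all granule-poor, of which 3 were from vehicle mouse 1, 1 from vehicle mouse 2, 1 from digoxin mouse 1 and 5 from digoxin mouse 2. Isg15, a ubiquitin-like modifier, and Rsad2, the antiviral protein viperin, were detected together in 18 cells. Isg15 was detected without Rsad2 in 20 cells and Rsad2 without Isg15 in 2. The highest share, 1.64%, was in a cell of vehicle mouse 1. The highest in vehicle mouse 2 was 1.45%, in a cell with 6076 UMIs and a mitochondrial share of 11.4%, and the next cell of that mouse held 0.479%.

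Transcripts of macrophages were found in many granule-poor cells. Of 10 macrophage markers, at least 3 were detected in 58 neutrophils (79.5%), 52 of them granule-poor, against 24.0% of T cells, which should lack them, and 98.9% of macrophages. As a share of UMIs, the markers passed 0.5% in 16 cells, all granule-poor, with a median of 2.06%, and no cell lay between 0.451% and 0.751%. The median share was 1.52% in macrophages and 0.0168% in T cells. The boundary of 0.5% was set after these values were seen. By mouse, 4 of 11, 1 of 5, 5 of 34 and 6 of 23 neutrophils were on the high side, in the order vehicle 1, vehicle 2, digoxin 1 and digoxin 2.

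In those 16 cells C1qa, a subunit of complement C1q, was at 3824 CPM, against 153 CPM in the 40 other granule-poor cells and 3782 CPM in macrophages. Apoe, a lipid carrier, was at 6987 CPM against 62.3 CPM, and Mrc1, the mannose receptor, at 2041 against 107 CPM. Neutrophil genes were present in them as well. S100a8 and S100a9 together had a median of 0.250% of UMIs in the 16 cells and 0.766% in the 40, while the mean shares, 0.779% and 1.08%, lay closer because of a few cells of up to 4.93%. Cxcr2 was at 293 and 286 CPM, Csf3r at 282 and 496 CPM and Il1b at 3930 and 8860 CPM. The 16 cells had a median of 16458.5 UMIs and the 40 cells 10531. Whether the 16 droplets each held a neutrophil and a macrophage was not tested beyond Scrublet, whose highest score among neutrophils was 0.225.

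MHC class II transcripts, which present antigen, were also divided. The class II genes made up at least 0.5% of the UMIs in 30 of 73 neutrophils. Of these, 2 were granule-rich, 8 were among the 16 cells rich in macrophage markers and 20 were among the 40 other granule-poor cells. Each of those 40 cells also held macrophage marker UMIs, from 0.0263% to 0.451%. Mean CPM over the mice was 6262 for Cd74, the invariant chain, 2948 for H2-Ab1 and 2252 for H2-Aa, against 7878, 3027 and 2686 CPM in macrophages. The median class II share was 0.542% in macrophages and 0.0169% in T cells. H2-Ab1 was at 3100 CPM in the 40 granule-poor cells with few macrophage transcripts. Cells with at least 0.5% numbered 4, 3, 15 and 8 in vehicle mice 1 and 2 and digoxin mice 1 and 2.

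**Figure D3:**
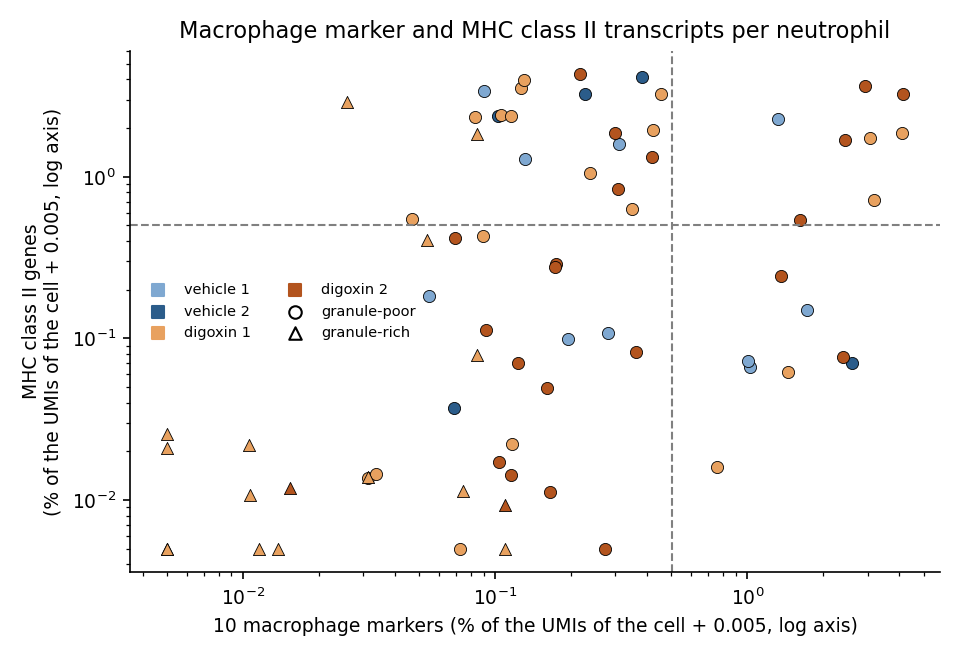
Share of each neutrophil's UMIs from 10 macrophage markers (x axis, percent + 0.005, log axis) against its share from MHC class II genes (y axis, percent + 0.005, log axis). Colours are mice, circles are granule-poor and triangles granule-rich cells, and dashed lines mark 0.5%. The 16 cells to the right are all granule-poor, and 22 cells lie above the line without passing the macrophage boundary.

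Among genes with at least 1 UMI per cell on average, those that varied most between neutrophils beyond counting error were S100a9, S100a8, Camp and Ngp, which follow granule content, and Apoe, Cd74, Ccl12, Cxcl2, Retnlg, Lcn2, Mmp9 and Chil3. Ctsk and Acp5, a protease and a phosphatase of osteoclasts, were also among the 15, and Ctsk came from 4 cells, none of them granule-rich. Abundant genes with similar CPM in both groups included Lyz2, the lysozyme of myeloid cells, at 11666 CPM in granule-rich and 11315 CPM in granule-poor cells. The CPM of granule-rich cells is lowered by their calgranulin and granule UMIs, so similar CPM does not show an equal level.

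Neutrophils made up a larger share of the cells in both digoxin tumors than in both vehicle tumors. They were 0.363% (95% exact binomial interval 0.181% to 0.648%) and 0.166% (0.0539% to 0.387%) of non-malignant cells in vehicle mice 1 and 2. In digoxin mice 1 and 2 they were 1.02% (0.705% to 1.42%) and 0.706% (0.448% to 1.06%). The intervals cover counting error only. The group means were 0.264% ± 0.139 (SD, n = 2) and 0.861% ± 0.220 (SD, n = 2), and the two-sided exact permutation test over mice gave p = 0.333, the smallest p that 2 mice against 2 can give. Of all cells, malignant ones included, neutrophils were 0.146% and 0.0539% with vehicle, against 0.450% and 0.318% with digoxin, with the same exact permutation p of 0.333.

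**Figure D4:**
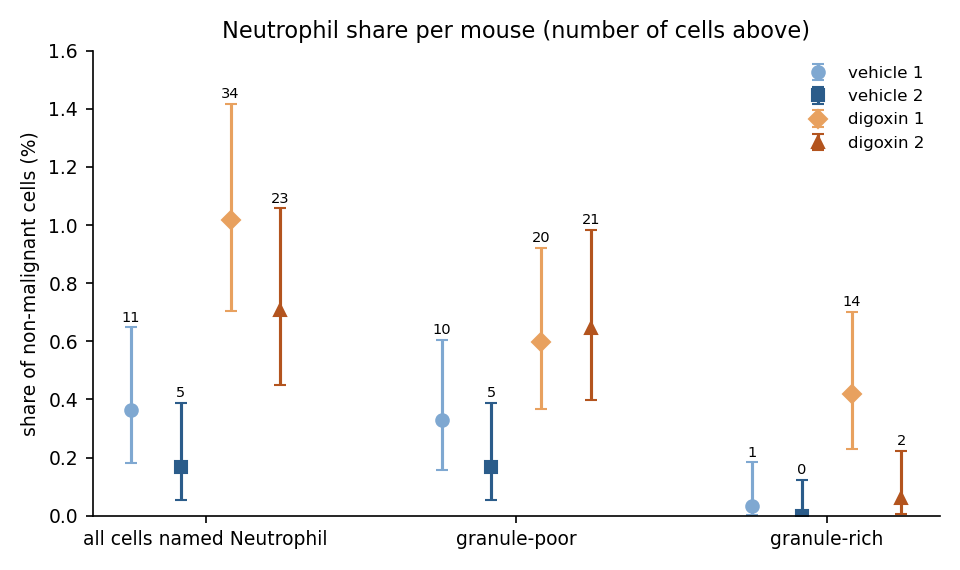
Share of non-malignant cells per mouse (y axis, percent) for all cells named Neutrophil and for the granule-poor and granule-rich cells, with exact 95% binomial intervals as bars and the number of cells above each. Both digoxin mice lie above both vehicle mice for all neutrophils and for granule-poor cells, and digoxin mouse 1 holds 14 of the 17 granule-rich cells.

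The higher share did not rest on the granule-rich cells. Granule-poor cells numbered 10, 5, 20 and 21 and made up 0.330%, 0.166%, 0.598% and 0.645% of non-malignant cells in vehicle mice 1 and 2 and digoxin mice 1 and 2. Without the 16 cells rich in macrophage markers, the mean share was 0.182% ± 0.0694 (SD, n = 2) in the vehicle group, against 0.695% ± 0.244 (SD, n = 2) in the digoxin group. With the stricter rule of leaving out every cell with at least 3 macrophage markers, 1, 0, 13 and 1 cells remained and the groups overlapped (exact permutation p = 0.667). A lower number of other cells recovered and a higher number of neutrophils cannot be told apart in a share.

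Granule-rich cells were 41.2% of the neutrophils of digoxin mouse 1 (exact interval 24.6% to 59.3%), 8.70% in digoxin mouse 2 (1.07% to 28.0%), 9.09% in vehicle mouse 1 (0.230% to 41.3%) and 0 of 5 in vehicle mouse 2, where the interval reaches 52.2%. Digoxin mouse 2 lay below vehicle mouse 1, so the groups overlapped. The share was high in 1 mouse, digoxin mouse 1.

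Treatment is described below by mean CPM per mouse, with no test per gene, because vehicle mouse 2 holds 5 neutrophils and 1 UMI in a cell of median depth adds 27.8 CPM to the mean of that mouse, against 2.15 CPM in digoxin mouse 1. Of 2807 genes with a mean of at least 50 CPM, 372 (13.3%) had both digoxin mice above both vehicle mice and 610 (21.7%) had both below. Differences are given as log2(CPM + 10), which understates those of low genes, and the median over the 2807 genes was -0.05. S100a8 and S100a9 took 2.27% and 0.627% of UMIs with vehicle, against 11.8% and 2.34% with digoxin, a share that lowers the CPM of all other genes in digoxin mouse 1. Counts are therefore also given in granule-poor cells, where 2908 genes passed the same filter and 18.7% were above and 16.6% below in both digoxin mice.

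Levels of secondary granule genes per mouse went with the granule-rich cells, of which 14 of 17 came from digoxin mouse 1. Of the 7 measured, 6 passed the filter, and these had both digoxin mice above, beside 13.3% of all genes, with a median log2 difference of 3.42. They passed largely through the granule-rich cells of digoxin mouse 1, so this count is a description only. Ngp had no UMI in either vehicle mouse and was at 13735 and 2045 CPM in digoxin mice 1 and 2, from 17 of 34 and 2 of 23 cells. Camp was at 870 and 0 CPM with vehicle, against 15839 and 2861 CPM with digoxin, a log2 difference of 6.17. This difference was 2.94 without vehicle mouse 2 and 9.40 without vehicle mouse 1. The Camp of vehicle mouse 1 came from its 1 granule-rich cell, and that of digoxin mouse 2 from 2 of its 23 cells. In granule-poor cells 2 secondary granule genes passed the filter and neither had groups that were apart. The log2 difference of Ltf was 3.51 in all neutrophils, and 1.88 without digoxin mouse 1 or 5.13 without digoxin mouse 2. In granule-poor cells it was -1.30, but there 4 of 56 cells held an Ltf UMI, so its sign rests on few cells. S100a9 was at 6136, 4647, 65404 and 12609 CPM in all neutrophils and at 4950, 4647, 8696 and 4645 CPM in granule-poor cells, where the groups overlapped. S100a8 overlapped in both. Of 6 tertiary granule genes past the filter, 2 had both digoxin mice above and 1 below, beside 13.3% and 21.7% of all genes, and no primary granule gene passed.

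Cycling genes are given by their values. Of 8, 4 passed the filter, and these had both digoxin mice above, beside 13.3% of all genes, but they passed through the digoxin mice where they were high, so the count is a description only and nothing is read from it. The same holds for the 2 that passed in granule-poor cells, both above, beside 18.7% of all genes there. Stmn1, a regulator of microtubules, was at 20.1 and 0 CPM with vehicle and 120 and 106 CPM with digoxin. Top2a was at 27.8, 0, 90.2 and 101 CPM.

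A part of the interferon-stimulated genes was lower in both digoxin mice. Of 12 past the filter, 6 had both digoxin mice below and 0 above, against 21.7% and 13.3% of all genes, with a median log2 difference of -1.37, and in granule-poor cells the counts were again 6 and 0 of 12, beside 16.6% and 18.7% of all genes there, with a median of -1.23. Isg15 was at 822 and 1049 CPM in the vehicle mice and at 156 and 387 CPM in the digoxin mice. Rsad2 was at 310, 1335, 109 and 137 CPM, so vehicle mouse 2 stood apart. Ifit1, which binds foreign RNA, was at 309, 560, 23.7 and 135 CPM.

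These interferon levels rested on few cells. The median share of interferon UMIs per cell was 0.192%, 0.0159%, 0.0211% and 0.0627%, so by the median cell vehicle mouse 2 lay below both digoxin mice and the groups overlapped. Rsad2 was detected in 6 of 11, 2 of 5, 7 of 34 and 5 of 23 cells. Without the 1 cell of vehicle mouse 2 described above, 3 of the 12 genes had both digoxin mice below instead of 6, while the number over all genes was 581 of the 2807 above. Other members overlapped, such as Cxcl10, a chemokine for T cells, at 254, 65.8, 123 and 647 CPM.

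Cytokines, chemokines and their receptors showed a mixed picture. Of 19 cytokine and chemokine genes past the filter, 5 had both digoxin mice below and 0 above, beside 21.7% below and 13.3% above of all genes, and in granule-poor cells 4 were below and 0 above, beside 16.6% and 18.7%, so the share below was near that of all genes in both. Il1b was at 9931 and 8320 CPM in the vehicle mice and at 4335 and 6060 CPM in the digoxin mice, and in granule-poor cells at 10426, 8320, 6604 and 6635 CPM, again with no overlap. Its group means were 9125 ± 1139 CPM (SD, n = 2) for vehicle, against 5197 ± 1220 CPM (SD, n = 2) for digoxin. Vegfa was at 295, 363, 112 and 110 CPM, and its groups did not overlap in granule-poor cells either.

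Of 11 chemoattractant receptors past the filter, 5 had both digoxin mice below and 2 above, and of 15 cytokine receptors 7 and 2, beside the same 21.7% and 13.3%. In granule-poor cells the counts were 4 and 1 of 10 and 4 and 3 of 15, beside 16.6% and 18.7%.

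Cxcl2 overlapped, at 13210, 11212, 8249 and 13819 CPM, and so did Cxcl3, at 316, 2229, 657 and 1081 CPM. The marker Csf3r was at 535 and 543 CPM with vehicle and 299 and 380 CPM with digoxin, and at 512, 543, 401 and 404 CPM in granule-poor cells. The marker Cxcr2 was at 402, 446, 285 and 234 CPM. In granule-poor cells Cxcr2 was at 289.3, 446, 288.9 and 248 CPM, so vehicle mouse 1 and digoxin mouse 1 were nearly equal. Cxcr4 was at 255, 463, 151 and 124 CPM. The 2 chemoattractant receptors higher in both digoxin mice were Ltb4r1, for leukotriene B4, at 155, 164, 361 and 276 CPM, and Fpr1, for bacterial formyl peptides, at 51.9, 0, 86.5 and 67.3 CPM.

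Transcription factors and early response genes had both digoxin mice below more often than above. Of 12 granulocyte transcription factors past the filter, 6 were below and 0 above, against 21.7% and 13.3% of all genes, and in granule-poor cells 5 were below and 1 above, against 16.6% and 18.7%. Cebpb was at 4715 and 4635 CPM with vehicle and 3141 and 3361 CPM with digoxin, and Klf2, a factor of quiescent cells, at 1039, 919, 572 and 431 CPM. Of 12 early response and dissociation genes past the filter, 7 were below and 2 above, and in granule-poor cells 5 and 2 of 12, beside the same shares of all genes. This list shares Fos and Junb with the one before, so the 2 counts are not separate. Dusp1, a phosphatase of MAP kinases, was at 4027, 3628, 1762 and 1870 CPM, and in granule-poor cells at 4085, 3628, 2459 and 2014 CPM. Egr1 was at 1074, 1997, 703 and 483 CPM. The 2 above were the heat shock genes Hspa1a, at 7.21, 0, 65.6 and 717 CPM, and Hspa1b, at 0, 0, 27.7 and 378 CPM, both mostly in digoxin mouse 2. Genes of this list are also induced when tissue is dissociated with enzymes, as it was here, and the part of that step was not tested. The median mitochondrial share of the neutrophils, a sign of cell and RNA quality, also differed by group, at 4.04%, 4.45%, 2.56% and 2.94%, and at 4.18%, 4.45%, 3.43% and 3.32% in granule-poor cells, and its part in these differences was not tested.

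Most genes of glycolysis and hypoxia had both digoxin mice below in all neutrophils, and few did in granule-poor cells. Of 16 genes past the filter, 11 were below and 0 above, beside 21.7% and 13.3% of all genes, with a median log2 difference of -0.50. In granule-poor cells 4 were below and 1 above, with a median of -0.22, a share below near the 16.6% of all genes there. Slc2a1, a glucose transporter, was at 245 and 442 CPM with vehicle and 136 in each digoxin mouse, and Ldha, lactate dehydrogenase A, at 792, 869, 515 and 513 CPM. In granule-poor cells Ldha was at 757, 869, 540 and 526 CPM. Hif1a, the oxygen-regulated factor, was at 393, 425, 267 and 388 CPM.

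A few groups pointed the other way. Of 9 adhesion genes past the filter, 4 had both digoxin mice above and 0 below, beside 13.3% and 21.7% of all genes, and in granule-poor cells the counts were again 4 and 0, beside 18.7% and 16.6%. Itgal, a chain of the integrin LFA-1, was at 24.0, 79.8, 154 and 105 CPM, Itgb2, its partner, at 271, 199, 405 and 305 CPM, and Cd44, a receptor of hyaluronan, at 671, 719, 735 and 784 CPM. Of 6 NADPH oxidase genes 2 were above and 0 below, and in granule-poor cells 3 and 0, beside the same shares of all genes. Rac2, a GTPase of the oxidase, was at 295, 151, 563 and 307 CPM, with a narrow gap between vehicle mouse 1 and digoxin mouse 2.

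**Figure D5:**
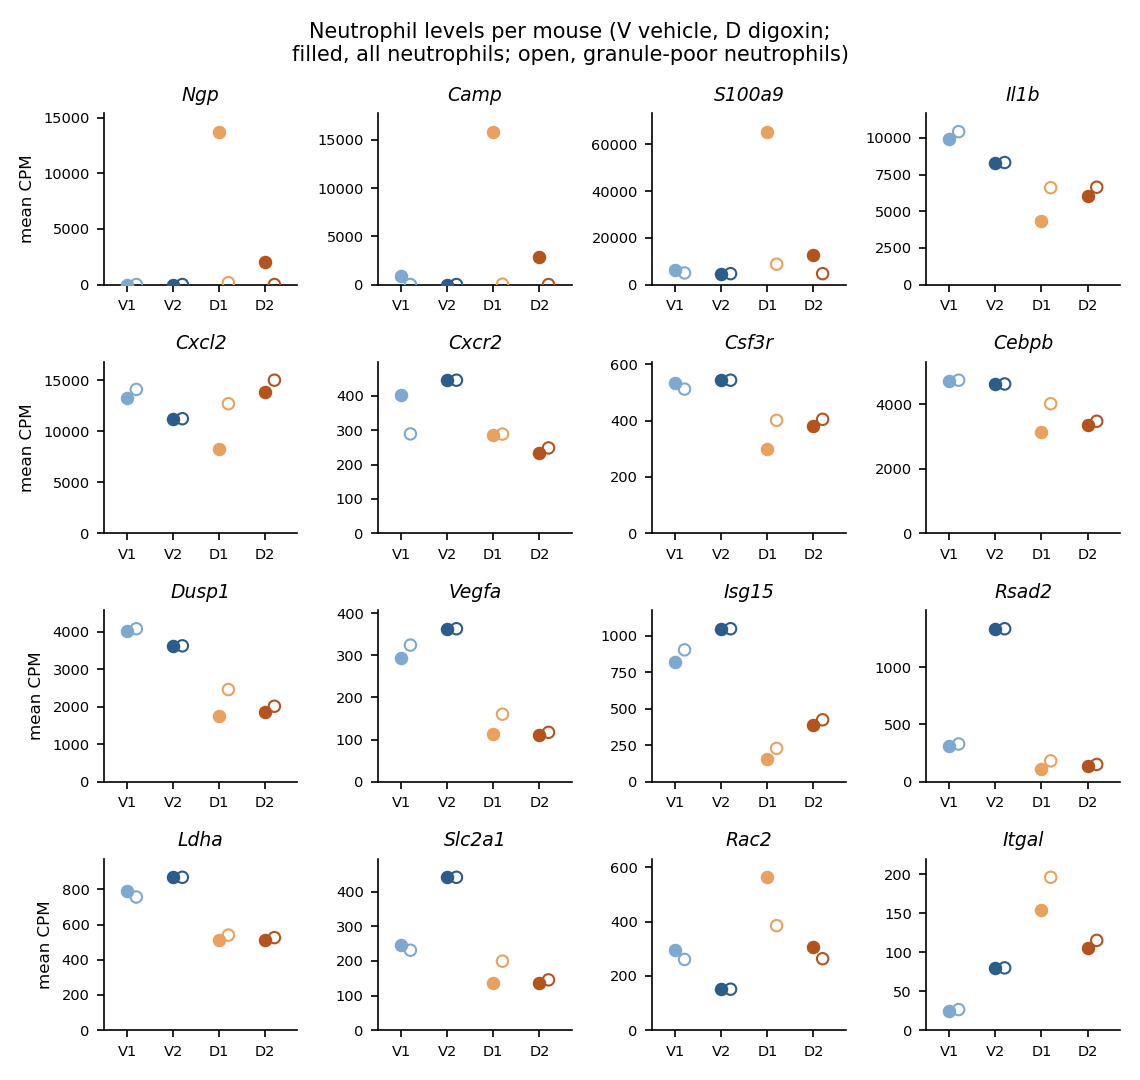
Mean CPM per mouse (y axes, each from 0) of 16 genes in all neutrophils (filled) and in granule-poor neutrophils (open), for vehicle mice (V1, V2) and digoxin mice (D1, D2). The granule genes Ngp and Camp are high in D1 and, less so, D2 in the filled points and near 0 in the open points, while Il1b, Dusp1, Vegfa and Isg15 lie lower in D1 and D2 in both kinds of point.

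Some of the genes with the widest gap in each direction, apart from those above, came from few cells. Cryab, a small heat shock protein, was at 9.25, 0, 189 and 83.6 CPM and came from 13 cells. Arg1, the arginase of suppressive myeloid cells, was at 923 CPM in vehicle mouse 1 and at 65.8, 38.9 and 17.3 CPM in the others, from 12 cells in all, and its log2 difference of -2.86 became -1.05 without vehicle mouse 1. Ifit3b had a UMI in 6 cells. The remaining genes with the widest gaps were Ly6g, Chil3 and Serpinb1a, an inhibitor of neutrophil proteases, above, and Ddx60, Oasl1, Ifit3, Isg20 and Gbp2b, all interferon-stimulated, below.

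Ligands that draw neutrophils were measured in the other cells for context. As a mean over mice Cxcl1 was highest in the cells named Fibroblast, at 1046, 625, 1253 and 2050 CPM. In malignant cells it was at 822, 751, 717 and 976 CPM, above the fibroblasts in vehicle mouse 2. Cxcl5 was at 303 CPM in fibroblasts on average, against 38.5 CPM in malignant cells. In macrophages Cxcl1 was at 490, 286, 597 and 697 CPM and Cxcl2 at 4472, 3438, 5552 and 5873 CPM, both with the digoxin mice above. The share of all genes with the digoxin mice above was not counted in macrophages or in the types that follow. Both ligands were also above in T cells and NK cells, with Cxcl2 at 200, 492, 886 and 729 CPM and at 99.9, 54.1, 347 and 322 CPM. The same held in the cells named Epithelial and Osteoclasts. In malignant cells Cxcl2 was above, at 269, 206, 278 and 391 CPM, and Cxcl1 overlapped. In fibroblasts Cxcl1 was above and Cxcl2 overlapped. Both overlapped in the cells named Microglia and B cell, and both were below in the cells named Dendritic. Csf3, which encodes G-CSF, was at 4.86 CPM in macrophages and 2.17 CPM in malignant cells. Of the neutrophils' own sodium pump genes, Atp1b3, a beta subunit of the target of digoxin, was at 297, 231, 174 and 215 CPM with the digoxin mice below, as 21.7% of all genes were. In granule-poor cells it was at 327, 231.0, 237 and 231.1 CPM, where the groups overlapped, and Atp1b2 had no UMI.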

How the data were processed

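Single-cell libraries of 2 vehicle and 2 digoxin tumors were analysed from the deposited tables of malignant and non-malignant cells, with the authors' cell types. The submitters' processing notes name Cell Ranger 3.0.2, Seurat 3.0.2 and mm10. The aligner settings, cell filters and the rule that separated malignant cells are not given in the sources used here. Deposited expression is on a natural log scale, ln(1 + UMIs per 10000 UMIs of the cell), and the deposited cell tables give the UMI count and gene count of each cell. Each value was turned back into UMIs with the cell's count: 100% came out whole within 0.01, and sums matched in all 12648 non-malignant cells. The library numbered 3 in its cell names is vehicle 2 in the deposited cell table.

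CPM per cell was averaged over the neutrophils of each mouse (Python 3.11.15, numpy 2.4.6, scipy 1.17.1), and the self-made code was tested on simulated data. Replicates are labelled by number only; separate mice are implied by the labels' protocols, so p-values measure the spread between these samples. Doublets were called per mouse with Scrublet (scanpy 1.11.5, expected share 0.06), which marked 1381 of 31611 cells (4.37%), and were kept. The call among non-malignant cells was 0.664%. The members and the gene lists were chosen with earlier results of these data known. Named genes were the listed genes, the 20 most specific and 20 most abundant, the 10 with the widest gap per direction and the 15 most variable. Of 305 listed genes, 299 were in the table. Promoter sequences are RefSeq's. 1 further item of the genotype is not reported here.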

Additional observations from a re-analysis of the deposited data

How the results depend on the processing

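The difference in neutrophil share kept its direction under each alternative tried: leaving out each mouse, doublets, cells above 10% mitochondrial UMIs, granule-rich cells or cells rich in macrophage markers. Without cells carrying at least 3 macrophage markers the difference in the share of non-malignant cells fell to 0.193 percentage points and the groups overlapped (exact permutation p = 0.667). With the replicate block, which pairs mice by number only, the difference stayed at 0.597 percentage points of non-malignant cells and 0.284 of all cells, and the smallest exact permutation p became 0.5. Counts of genes moved with the filter, which sets how many are tested, and when 1 mouse was left out, which makes separate groups easier to reach. The number with both digoxin mice above was 372 and ranged from 496 to 1008 when 1 mouse was left out, and was 2535 with no filter, 79 with a filter of 200 CPM and 820 without cells carrying at least 3 macrophage markers, where vehicle mouse 2 had no cell left and vehicle mouse 1 and digoxin mouse 2 had 1 each, so that count compares both digoxin mice with 1 vehicle cell. The number below was 610 and ranged from 858 to 1227, and was 1400, 192 and 1190 in the same order. Of single genes, the log2 difference of Ltf turned to -1.30 without granule-rich cells, where 4 of 56 cells held an Ltf UMI. The log2 differences of Camp, Ngp, Chil3, Ly6g and Serpinb1a shrank to 1.13, 2.07, 0.96, 0.85 and 0.33 there, an alternative chosen after seeing the data. Of 156 values recomputed for single genes and for the share of secondary granule UMIs, 142 kept their direction and moved by less than the spread between mice (1 SD). That spread was wide: without granule-rich cells S100a8 was at 3307 CPM instead of 20391, S100a9 at 5734 instead of 22199 and the granule share at 0.0503% instead of 1.28%. Without cells carrying at least 3 macrophage markers they moved further, to 130942 CPM, 90389 CPM and 7.49%, and Cxcr2 to 629 CPM instead of 342, with no cell of vehicle mouse 2 left. In vehicle mouse 2, with 42735 neutrophil UMIs, 3 UMIs are worth 76.4 CPM on average over its cells, so lower levels may be missed there.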
